A study of Mus musculus with 4 samples.

Results

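*Mbp*, *Pmp22*, *Mag*, *Prx*, *Egr2*, *Sox10*, *Olig1* and *Olig2* are genes of the cells that wrap nerve fibres in myelin, and their RNA levels were compared in whole cochleae with and without ablation of outer hair cells (OHCs). Every non-control probe that carries the name of 1 of these genes in the array files was taken, which gave 11 probes of 8 genes among the 39429 probes of the array. All 11 were well above background on all 4 arrays, a flag that the scanner software sets for a spot. Probes without it on all 4 arrays are written as at background throughout. *Olig2* was at least 2-fold higher in the mice that had lost their OHCs than in each of the 3 control groups. The other 7 genes did not reach 2-fold in any comparison.

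RNA came from cochleae of 4 groups of B6J mice at 5 weeks of age, which were wild-type (WT) and *Prestin*-*hDTR* mice, each genotype untreated and given diphtheria toxin (DT). The DT-treated *Prestin*-*hDTR* mice are called the ablated mice or group below. The labels call the transgenic genotype OHC-TRECK. It is line #38, a single transgenic line in which the promoter of prestin, the motor protein of OHCs, drives a human DT receptor. The treated mice had 50 μg/kg of DT by intraperitoneal injection 7 days before the cochleae were taken, and each group had 1 array. The labels give pooled males and females and 8 per group, 4 of each sex, but the sources used here do not settle whether the 8 are mice or cochleae, nor how the RNA was combined for the array. Mouse cells bind DT poorly without the human receptor, so DT-treated WT mice hold the effect of the toxin alone. With 1 array per group no difference has a replicate check and no p-value is given, and the errors and 95% intervals below are those of the scanner software for the spots alone.

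Schwann cells make myelin along peripheral nerve fibres and oligodendrocytes make it in the brain and along the central end of the cochlear nerve. Both use the transcription factor *Sox10*, which in Schwann cells acts upstream of *Egr2*, and these factors switch on the genes of the myelin sheath. *Olig1* and *Olig2* are neighbouring genes for basic helix-loop-helix (bHLH) transcription factors. They are known for directing oligodendrocyte formation, and *Olig2* also for motor neurons of the spinal cord. In the cochlea, Schwann cells wrap the fibres and cell bodies of spiral ganglion neurons, whereas satellite glia and non-myelinating Schwann cells cover the remaining neurons and fibres.

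The sequence before the *Olig2* start site is shown because this was the only one of the 8 genes that changed by 2-fold. These are the 250 bases before the RefSeq start of *Olig2* in build GRCm38.p6, plus strand at chr16:91225300-91225549, written 5′ to 3′ with the letters TATAAA in capitals.
*Olig2* upstream: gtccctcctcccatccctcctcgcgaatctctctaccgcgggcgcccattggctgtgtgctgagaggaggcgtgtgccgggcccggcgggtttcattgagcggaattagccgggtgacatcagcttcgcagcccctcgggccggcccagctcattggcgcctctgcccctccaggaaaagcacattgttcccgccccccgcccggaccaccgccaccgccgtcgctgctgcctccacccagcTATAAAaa
GC made up 66.8% of these bases, against a median of 52.4% over all windows of the same kind, and 22 CpG were counted. TATAAA occurred once, on the plus strand and beginning 8 bases before the start, and was present on either strand in 12.4% of 32851 such windows. The E-box letters CANNTG, which bHLH factors recognise, did not occur in it on either strand, whereas 66.2% of windows had them. TGANTCA, the letters recognised by the AP-1 family, did not occur either and was in 6.75% of windows. Of the 8 genes, 5 had an entry in the RefSeq promoter table.

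*Olig2* was measured by 1 probe, at chr16:91228470-91228529 in build mm9, the build of all probe positions given here. Its background-subtracted intensity was 130 in untreated WT, 84.8 in DT-treated WT, 118 in untreated *Prestin*-*hDTR* and 452 in ablated mice. Divided by the 75th percentile of each array and brought to the log2 scale, which is the normalized log2 signal used from here on, these were -4.39, -5.22, -4.67 and -2.79. The 3 controls lay within 0.83 of each other, and the DT-treated *Prestin*-*hDTR* array lay above all of them. This is a dim probe. Its normalized log2 signal stood above the lowest signal that counted as well above background by 1.54 in untreated WT, by 0.26 in DT-treated WT, by 1.72 in untreated *Prestin*-*hDTR* and by 2.66 in ablated mice.

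The log2 ratio of *Olig2* in ablated against untreated *Prestin*-*hDTR* mice was 1.89 (SE 0.23, 95% interval 1.43 to 2.35), which is 3.70-fold. Against untreated WT mice it was 1.60 (SE 0.24), or 3.03-fold, and against DT-treated WT mice 2.43 (SE 0.35), or 5.40-fold. These comparisons share the DT-treated *Prestin*-*hDTR* array. In the first of them 2.68% of 26075 probes were at least 2-fold higher, in the second 1.99% of 26322 and in the third 1.41% of 25393. The number of probes with a larger rise than *Olig2* was 175, 180 and 21 in the same order. In DT-treated *Prestin*-*hDTR* mice 271 of 28675 probes, or 0.945%, stood at least 2-fold above each of the other 3 arrays, *Olig2* among them. DT in WT mice went with a lower *Olig2* signal, with a log2 ratio of -0.83 (SE 0.37) against untreated WT that did not reach 2-fold.

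**Figure D1:**
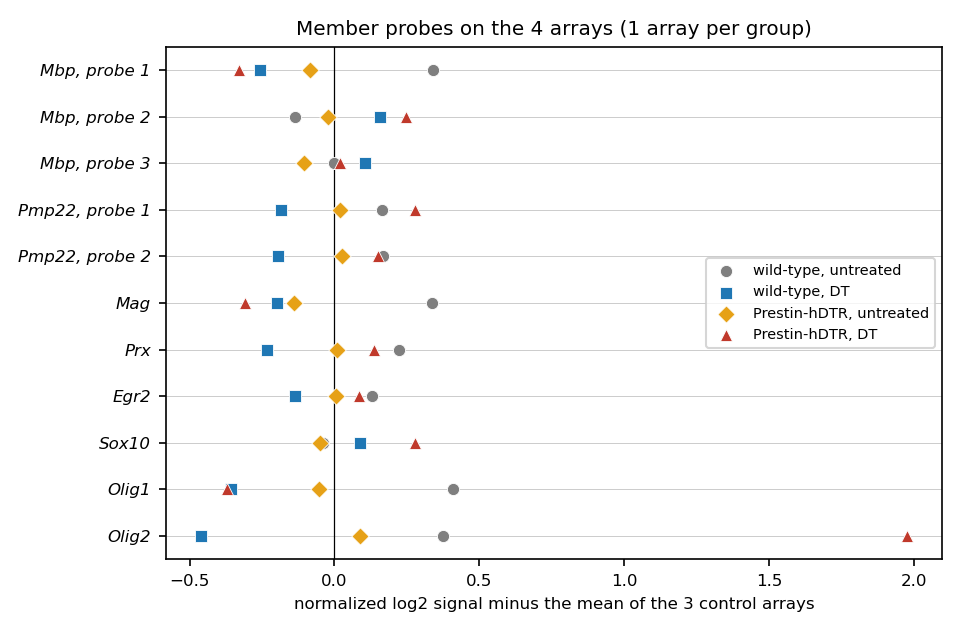
Normalized log2 signal of the 11 probes on each of the 4 arrays, as the difference from the mean of the 3 control arrays of the same probe (x axis, log2 units), with 1 symbol per array and the probes on the y axis. The DT-treated *Prestin*-*hDTR* symbol of *Olig2* lies apart on the right, and untreated WT is highest for 6 of the 11 probes.

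*Olig1*, the neighbour of *Olig2*, did not move with it. The *Olig1* probe at chr16:91271799-91271858 lies 43.33 kb from that of *Olig2*. Its normalized log2 signal was -0.39 in untreated WT, -1.15 in DT-treated WT, -0.85 in untreated *Prestin*-*hDTR* and -1.17 in ablated mice, highest in untreated WT and lowest in the ablated group. The log2 ratio in ablated against untreated *Prestin*-*hDTR* mice was -0.32 (SE 0.20, 95% interval -0.72 to 0.08), opposite in sign to that of *Olig2*. DT-treated *Prestin*-*hDTR* and DT-treated WT mice differed by -0.02 (SE 0.21). Both stood below untreated WT, by -0.78 (95% interval -1.18 to -0.38) and -0.76 (-1.16 to -0.36).

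The other genes around *Olig2* were likewise within 2-fold. Within 500 kb on either side the array holds 33 other probes under 24 names, some of them only a probe identifier. Of these, 31 probes under 22 names could be compared between ablated and untreated *Prestin*-*hDTR* mice. Their log2 ratios ran from -0.47 to 0.48 with a median of 0.01, and 0 were 2-fold higher and 0 were 2-fold lower. Of all probes only 4.13% passed 2-fold in either direction, so this count does not set the region apart. *Ifnar2*, a receptor subunit for type I interferons at 165.57 kb, had 0.31. The probes of *Ifnar1*, for the other subunit of that receptor, had -0.31, 0.02 and -0.08.

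**Figure D2:**
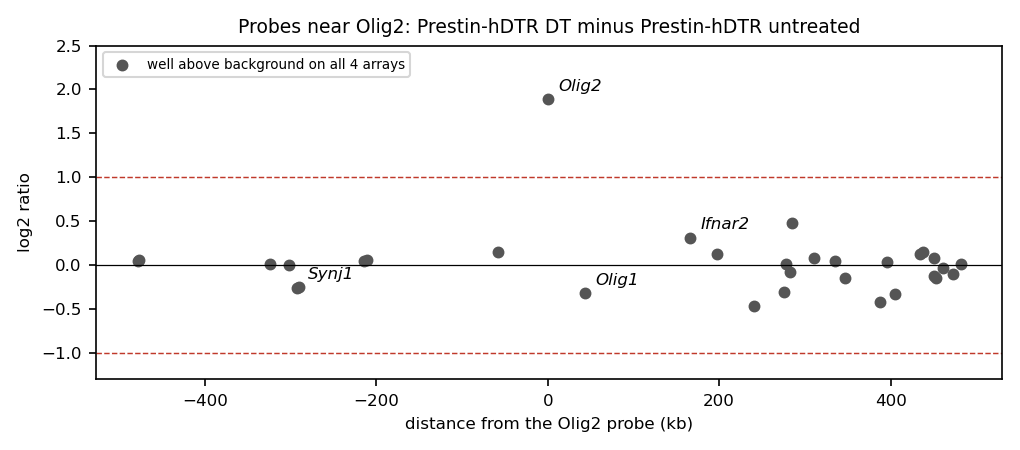
Log2 ratio of DT-treated against untreated *Prestin*-*hDTR* mice (y axis) for the probes within 500 kb of the *Olig2* probe on chromosome 16 (x axis, distance in kb), with dashed lines at 2-fold. *Olig2* stands at 1.89 and the 31 other probes between -0.47 and 0.48.

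*Sox10*, the factor that Schwann cells, oligodendrocytes and melanocytes share, had a normalized log2 signal (chr15:78985518-78985577) of 2.60 in untreated WT, 2.73 in DT-treated WT, 2.59 in untreated *Prestin*-*hDTR* and 2.92 in ablated mice. The ablated group was highest, with a log2 ratio against untreated *Prestin*-*hDTR* of 0.33 (SE 0.20, 95% interval -0.07 to 0.73). Melanocytes of the stria vascularis also use *Sox10*. In the same comparison 7 of 8 melanocyte genes were higher, as were 47.5% of all genes, with a median log2 ratio of 0.32. The summed normalized signal of the melanocyte genes was 88.2 against 76.0 to 80.8 in the controls. The part of these cells in the *Sox10* value was not tested. *Egr2*, the factor that switches Schwann cells to myelination and an immediate early gene in other cells, was at 2.36, 2.10, 2.23 and 2.31 in the same order of groups (chr10:67004798-67004857). The ablated group lay inside the range of the controls, and its log2 ratio against untreated *Prestin*-*hDTR* was 0.08 (SE 0.20).

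Among the proteins of the sheath, periaxin and peripheral myelin protein 22 are typical of Schwann cell myelin. *Prx*, for periaxin, which links the outer Schwann cell membrane to the basal lamina, was at a normalized log2 signal of 4.89 in untreated WT, 4.44 in DT-treated WT, 4.68 in untreated *Prestin*-*hDTR* and 4.80 in ablated mice (chr7:28304999-28305058). The log2 ratio of the last pair was 0.13 (SE 0.20), and DT-treated WT was lowest, at -0.45 (95% interval -0.85 to -0.05) against untreated WT. *Pmp22*, whose protein holds compact myelin together, had a probe at chr11:62971862-62971921 with 2.54, 2.19, 2.40 and 2.66 in this order. A second *Pmp22* probe at chr11:62972989-62973048 gave 5.15, 4.79, 5.01 and 5.13. The log2 ratios of the ablated group against untreated *Prestin*-*hDTR* were 0.26 and 0.12 (SE 0.20 each). Both *Pmp22* probes were lowest in DT-treated WT mice, and against that group the ablated mice were higher by 0.46 (95% interval 0.06 to 0.86) and 0.34 (-0.06 to 0.74).

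*Mag* and *Mbp* belong to the myelin of both cell types. *Mag*, for a receptor on the inner face of the sheath that touches the axon, was at 2.61 in untreated WT, 2.07 in DT-treated WT, 2.13 in untreated *Prestin*-*hDTR* and 1.96 in ablated mice (chr7:31684202-31684261). Untreated WT stood above the other 3 arrays, which lay close together. The log2 ratio of the ablated group was -0.17 (SE 0.20) against untreated *Prestin*-*hDTR* and -0.65 (95% interval -1.05 to -0.25) against untreated WT.

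*Mbp*, for the myelin basic protein that pulls the membrane layers together, had 3 probes, and they did not move together. Probe 1 (chr18:82742266-82744570, an interval wider than the probe, which crosses an intron) gave normalized log2 signals of 2.38, 1.79, 1.96 and 1.71 for untreated WT, DT-treated WT, untreated *Prestin*-*hDTR* and ablated mice. Probe 2 (chr18:82727929-82727988), which the files assign to another transcript, gave 1.51, 1.80, 1.62 and 1.89. Probe 1 was therefore highest and probe 2 lowest in untreated WT, and their log2 ratios had opposite signs in all 5 comparisons of arrays made. In ablated against untreated *Prestin*-*hDTR* mice these were -0.24 and 0.27 (SE 0.20 each), and against untreated WT -0.67 and 0.38, a difference between the probes of -1.05 (SE 0.29). Probe 3 (chr18:82691469-82691528) was dimmer and nearly level, at -3.70, -3.59, -3.80 and -3.68, with 0.12 (SE 0.23) for the ablated group against untreated *Prestin*-*hDTR*. No direction for *Mbp* as a gene follows from these values.

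**Figure D3:**
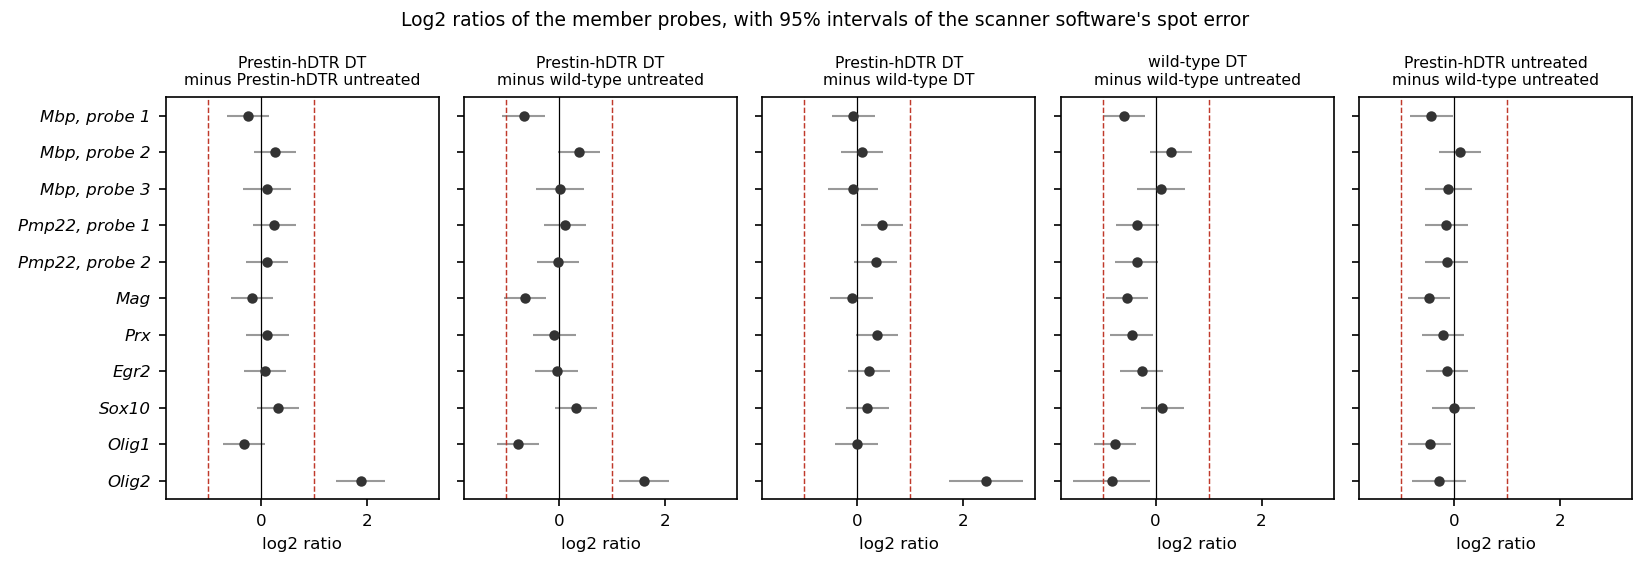
Log2 ratios of the 11 probes (points) with 95% intervals of the spot error (lines) in the 5 comparisons of arrays, 1 panel each, with dashed lines at 2-fold. Only *Olig2* lies past a dashed line, in the 3 panels that hold DT-treated *Prestin*-*hDTR* mice, and in DT-treated against untreated WT 8 of 11 probes lie left of 0.

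Without *Olig2*, the log2 ratios of the other 10 probes in ablated against untreated *Prestin*-*hDTR* mice ran from -0.32 to 0.33 with a median of 0.12, and 7 were higher and 3 lower. Over all probes measured on both arrays the median was 0.00 and 93.2% lay within 1.5-fold, as did 10 of these 10. The call of 2-fold took in 0 of these 10 probes, where 4.13% of all probes passed it in either direction. *Olig2* is left out of this count because its rise was known when the genes were chosen. Among the control groups 0 of 11 probes passed 2-fold, against 2.59% of all probes in DT-treated against untreated WT and 3.42% in untreated *Prestin*-*hDTR* against untreated WT. In these 2 comparisons 8 and 10 of the 11 probes were lower than in untreated WT, by a median of -0.36 and -0.14. Of all genes, 12138 of 20151 and 11304 of 21096 were lower in the same order.

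The other genes of peripheral myelin also stayed within 2-fold. All 15 listed genes of the Schwann cell sheath were measured on all 4 arrays, and in ablated against untreated *Prestin*-*hDTR* mice 0 were 2-fold higher and 0 were 2-fold lower, with 11 higher, 4 lower and a median log2 ratio of 0.10. Over all 19987 genes compared the median was -0.01, with 581 genes 2-fold higher and 303 lower. *Cnp*, for a protein of the non-compact myelin, had a log2 ratio of 0.04 and *Mal*, for a myelin lipid raft protein, 0.17. In DT-treated against untreated WT mice 13 of the 15 were lower, with a median of -0.29, where the median of all genes was -0.04. Their summed normalized signal was 211 in untreated WT, 161 in DT-treated WT, 182 in untreated *Prestin*-*hDTR* and 190 in ablated mice. The ablated group thus lay inside the range of the controls. In these whole cochleae, fewer cells of a type and less RNA per cell cannot be told apart.

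Genes of the signals from axons to Schwann cells went both ways. Of 11 genes of ErbB and myelination signalling 0 were 2-fold higher and 0 lower in ablated against untreated *Prestin*-*hDTR* mice, with 7 higher, 4 lower and a median log2 ratio of 0.04. *Nrg1*, the axonal growth factor that sets myelin thickness, had -0.45, with a normalized log2 signal of 0.98 in the ablated group against 1.35 to 1.49 in the controls. Its receptors *Erbb2* and *Erbb3* had 0.21 and -0.17, and *Adgrg6*, an adhesion receptor needed for peripheral myelination, had 0.04. The 12 enzymes of myelin lipids had a median of -0.01 and none was 2-fold higher or lower. *Ugt8a*, which makes galactosylceramide, had 0.13, *Fa2h*, which hydroxylates its fatty acids, -0.15, *Gal3st1*, which makes sulfatide, 0.02, and *Cers2*, a ceramide synthase for very long chains, 0.40. In DT-treated against untreated WT mice 11 of these 12 were lower, as were 12138 of all 20151 genes, with a median of -0.25. Against DT-treated WT, all 12 were higher in the ablated group, as were 52.1% of all genes, with a median of 0.16. The largest log2 ratio was 0.39. Those 2 comparisons share the DT-treated WT array.

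Nerve injury turns Schwann cells into a repair state that is marked by *Jun* and by lower myelin genes. Of 12 genes listed for that state, 1 was 2-fold higher and 0 were lower in ablated against untreated *Prestin*-*hDTR* mice, where 2.91% of all genes were 2-fold higher and 1.52% lower, and the median log2 ratio was 0.09. The gene that rose was *Gap43*, for a growth cone protein that neurons with growing axons also make. Its normalized log2 signal was -2.64 in untreated WT, -3.05 in DT-treated WT, -3.01 in untreated *Prestin*-*hDTR* and -1.42 in ablated mice, above all 3 controls, with log2 ratios of 1.59, 1.22 and 1.64 against untreated *Prestin*-*hDTR*, untreated WT and DT-treated WT. *Jun* had a log2 ratio of 0.06 in the first comparison, *Ngfr*, for the low-affinity neurotrophin receptor, 0.04, and *Shh*, for a secreted signal, 0.37. Non-myelinating glia had a median of 0.12 over 9 genes, with 0.17 for *Fabp7*, a fatty acid binding protein of satellite glia, -0.20 for *Gfap* and -0.05 for *S100b*. The probe of *Scn7a*, also in that list, was at background throughout.

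Most oligodendrocyte genes were lower, and none was 2-fold lower, in ablated against untreated *Prestin*-*hDTR* mice. Of 16 listed genes, 14 could be compared, of which 10 were lower and 4 higher, with a median log2 ratio of -0.20 against -0.01 over all genes. *Mog*, a surface protein of oligodendrocyte myelin, was at a normalized log2 signal of -0.70 in untreated WT, -1.20 in DT-treated WT, -1.05 in untreated *Prestin*-*hDTR* and -1.32 in ablated mice. *Mobp*, for a structural protein of central myelin, was at 2.32, 1.74, 1.80 and 1.66 in the same order. Both had their highest signal in untreated WT and their lowest in the ablated group, like *Mag*, *Olig1* and *Mbp* probe 1. The log2 ratios of the ablated group against untreated *Prestin*-*hDTR* were -0.26 for *Mog*, -0.15 for *Mobp* and -0.57 for *Ermn*, for a cytoskeletal protein of these cells. A second *Ermn* probe, also well above background on all 4 arrays, gave -0.20, so the size for *Ermn* depends on the probe. In DT-treated against untreated WT the first *Ermn* probe had 0.08 and the second -0.61. *Opalin* was at background throughout.

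Against untreated WT mice 12 of 15 oligodendrocyte genes were lower in the ablated group, as were 11167 of all 20209 genes, with a median of -0.51. The 1 gene past 2-fold, named after its value was seen, was *Nkx6-2*, for a homeobox factor of oligodendrocytes, at -1.17, where 1.98% of all probes were at least 2-fold lower. The controls differed in the same direction, with medians of -0.35 for DT-treated WT and -0.23 for untreated *Prestin*-*hDTR* against untreated WT. Of the 14 genes measured on all arrays 10 were highest in untreated WT, against 31.7% of all genes, and 10 were lowest in the ablated group, against 34.9%. Schwann sheath genes were highest in untreated WT for 9 of 15. The genes of oligodendrocyte precursors had a median of -0.17 over 11 genes in ablated against untreated *Prestin*-*hDTR* mice, and 0 passed 2-fold. *Pdgfra*, for the growth factor receptor of precursors and of fibroblasts, had 0.07, *Cspg4*, for the NG2 proteoglycan that pericytes also carry, 0.32, *Gpr17*, a receptor of differentiating precursors, -0.54, and *Bcan*, for the matrix protein brevican, -0.28. *Neu4* was at background throughout.

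One precursor gene, *Sox6*, was high in both groups of transgenic mice and is named here after its values were seen. Its normalized log2 signal was -5.13 in untreated WT, -4.67 in DT-treated WT, -3.61 in untreated *Prestin*-*hDTR* and -2.99 in ablated mice. This is 1 dim probe, and the lowest signal that counted as well above background was -5.93 in untreated WT and -5.48 in DT-treated WT. The log2 ratio was 2.14 in the ablated group against untreated WT, but already 1.53 in untreated *Prestin*-*hDTR* against untreated WT, and 0.62 between the transgenic groups. Of all probes, 1.99% and 1.04% were at least 2-fold higher in the comparisons with untreated WT, in the same order. *Sox6* encodes a transcription factor of precursors, cartilage and red cell precursors.

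Other transcription factors listed with *Olig2*, most but not all of them bHLH factors or their partners, did not move with it either. Of 12 listed genes *Olig3*, *Bhlhe23* and *Neurod1* were at background throughout, and 8 could be compared between ablated and untreated *Prestin*-*hDTR* mice, with a median log2 ratio of 0.03 and 0 past 2-fold. *Bhlhe22*, a member of the same bHLH branch, had -0.09. *Neurog1*, the factor that forms spiral ganglion neurons in the embryo, was named after its values were seen, because it lay at least 2-fold above the other groups in untreated WT.

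**Figure D4:**
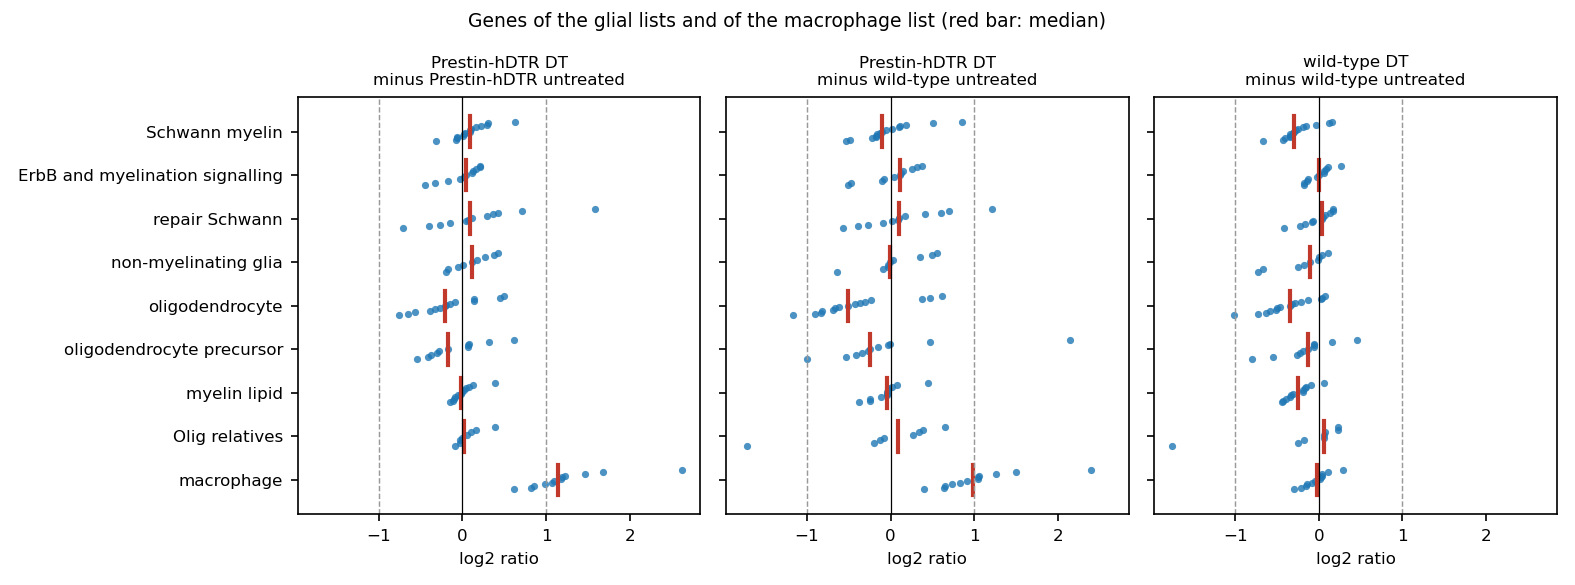
Log2 ratios of the genes of 8 glial lists and of the macrophage list (points, 1 per gene) with the list median (red bar), for DT-treated *Prestin*-*hDTR* against untreated *Prestin*-*hDTR* mice, against untreated WT, and for DT-treated against untreated WT, with dashed lines at 2-fold. The macrophage genes lie to the right of 0 in the first 2 panels with a median of 1.14 in the first, and the oligodendrocyte genes have medians of -0.20, -0.51 and -0.35.

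The genes whose profile over the 4 arrays was nearest to that of *Olig2* were none of the 8 genes and in none of the glial lists. Likeness was the Euclidean distance between normalized log2 signals, each probe set to its own mean over the 4 arrays, among 20624 probes of other named genes. The nearest were *Ccl7* at 0.239, *Clec1a* at 0.258, *Elf4* at 0.402, *Ccl2* at 0.446 and *Elf5* at 0.475. *Ccl7* and *Ccl2* encode chemokines that attract monocytes, *Clec1a* a C-type lectin, and *Elf4* and *Elf5* transcription factors of the ETS family. Normalized log2 signals of *Ccl2* were -3.37, -3.79, -3.86 and -1.64, and those of *Ccl7* were -3.77, -4.45, -4.24 and -2.16 for untreated WT, DT-treated WT, untreated *Prestin*-*hDTR* and ablated mice. The other 10 probes of the 8 genes lay at distances from 1.51, for *Pmp22*, to 2.04, for *Olig1*. With 4 arrays, any probe that is high in the ablated group alone comes near this profile.

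**Figure D5:**
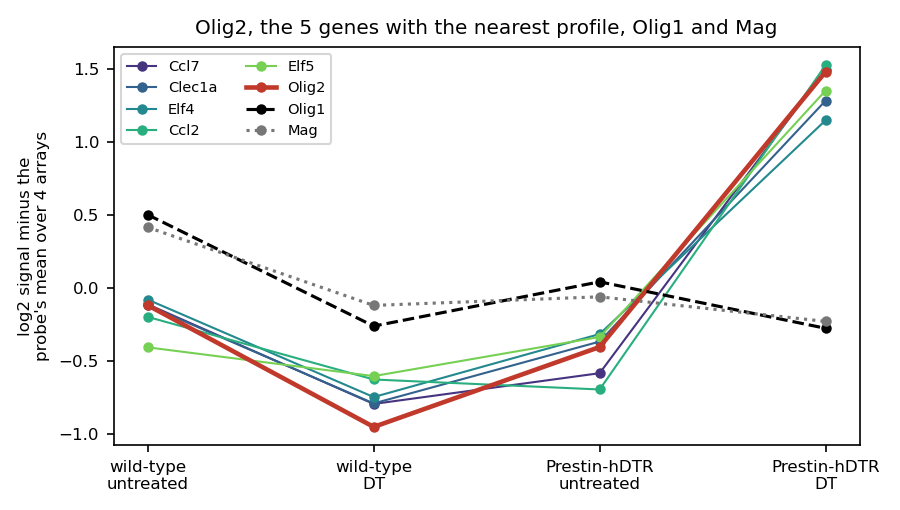
Normalized log2 signal of *Olig2*, of the 5 genes with the nearest profile and of *Olig1* and *Mag*, each set to its own mean over the 4 arrays (y axis), on the 4 arrays (x axis, lines join the points of a gene). *Olig2* and the 5 genes are highest in DT-treated *Prestin*-*hDTR* mice, whereas *Olig1* and *Mag* are highest in untreated WT.

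Markers of other cells differed between the same arrays. Macrophage genes were all higher in ablated than in untreated *Prestin*-*hDTR* mice, 12 of 12, with 8 past 2-fold and a median log2 ratio of 1.14, where 47.5% of all genes were higher and 2.91% 2-fold higher. Their summed normalized signal was 40.1 against 18.2 to 21.1 in the controls. Whether these cells have a part in the *Olig2* signal was not tested. Of 8 OHC genes 5 were at least 2-fold lower, as were 1.52% of all genes, with a summed signal of 5.88 against 23.8 to 25.8. Genes of spiral ganglion neurons, whose fibres carry the myelin, had a median of -0.20, with 9 of 12 lower and 0 past 2-fold. In DT-treated against untreated WT all 12 were lower, with a median of -0.25 and 0 past 2-fold. There 12138 of all 20151 genes were lower. Blood and marrow genes varied among the controls as well, and the summed signal of 8 neutrophil genes was 38.3 in untreated WT, 59.8 in DT-treated WT, 13.7 in untreated *Prestin*-*hDTR* and 23.5 in ablated mice. For the erythroid list it was 65.2, 83.0, 78.1 and 84.8, and for the B cell list 3.38, 4.81, 3.27 and 3.34. A sum follows the brightest genes, and gene by gene the erythroid list differed more. In DT-treated against untreated WT its median log2 ratio was 1.99, with 5 of 8 genes 2-fold higher, against 1.57% of all genes. In ablated against DT-treated WT mice it was -1.24, with 5 of 8 genes 2-fold lower, against 1.94% of all genes. The part of blood cells and of neuronal RNA in the differences among the controls was not tested. Supporting cell genes had a median of 0.13 and inner hair cell genes -0.41 in ablated against untreated *Prestin*-*hDTR* mice, with 0 past 2-fold in both lists.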

How the data were processed

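Cy3-labelled cochlear RNA was measured on 4 one-colour arrays, 1 per group. The authors deposited, per array, the spot intensity of Feature Extraction 11.5.1.1, background-subtracted and not scaled between arrays, and a table of signal values that proved to be this intensity divided by 1 constant per array. From the deposited intensity, control and outlier spots (149 to 228 per array) were dropped, spots of a probe averaged, arrays divided by their 75th percentile (2728 to 3162) and log2 taken. A flag held for a probe when more than 0.5 of its spots had it. Well above background were 62.2% to 70.6% of probes, and 0 spots were saturated. A comparison took in probes with this flag on 1 array or both, with the dimmer signal raised to the lowest such signal of its array, and left a probe out where only the dimmer array had the flag. Calls were made at 2-fold. Errors combine the spot errors of the scanner software. Precision is limited by having few arrays, and repeated spots within an array differed by a median SD of 0.061 to 0.072 (log2).

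The genes and the 18 gene lists were chosen with earlier results of these data known, and 1 gene (*Sox2*) stands in 2 lists. Lists used the brightest probe per gene. Named are all probes of the 8 genes, list genes at 2-fold in DT-treated against untreated *Prestin*-*hDTR* mice and otherwise up to 4 per list in listed order, and the 5 genes nearest to *Olig2*; *Vgf*, also in that rule, is not described. Some named genes of the lists are not reported here. Names came from RefSeq by symbol for 29803 probes. Whether a probe lies in coding sequence or a UTR was not determined. The steps were tested on simulated data, with changes put only into probes brighter than *Olig2*, so calls at its level were not tested. Alternatives were normexp with an offset of 50 (limma 3.58.1, R 4.3.3), median or quantile scaling, other filters, no floor, the deposited table, the mean over probes and 1.5-fold. Python 3.11.15, numpy 2.4.6, pandas 2.3.3 and matplotlib 3.10.9 were used.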

Additional observations from a re-analysis of the deposited data

Results flagged for a closer look

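For 4 of the 8 genes the toxin went with opposite signs in the 2 genotypes, DT-treated against untreated within *Prestin*-*hDTR* and within WT mice. The log2 ratio in *Prestin*-*hDTR* minus that in WT was 2.72 for *Olig2* (1.89 against -0.83), 0.60 and 0.48 for the *Pmp22* probes, 0.58 for *Prx* and 0.35 for *Egr2*. With 1 array per group these differences were not tested, and the spot error alone gives an SE of 0.44 for *Olig2* and 0.29 for each of the others. For *Pmp22*, *Prx* and *Egr2* the larger part of the difference came from lower signals in DT-treated WT mice. The largest differences, those of *Olig2*, *Prx* and both *Pmp22* probes, were of opposite sign. That of *Egr2* was smaller than some differences of the same sign. Among probes with the same sign in both genotypes the difference was 0.44 for *Olig1*, 0.37 for *Mag* and 0.35 for *Mbp* probe 1. It was 0.20 for *Sox10* and -0.02 and 0.02 for *Mbp* probes 2 and 3. The share of all probes with opposite signs was not counted.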

How the results depend on the processing

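Ratios and counts of the 11 probes, the medians of the glial lists and 1 median of all genes were recomputed under 9 alternatives, 109 results in all. Some alternatives applied to 1 kind of result only. No recomputed ratio past 2-fold changed sign. The lists of other cells, the summed signals, the genes around *Olig2*, single list genes and the nearest profiles were not recomputed. Values near 0 did change sign under at least 1 alternative. Of the 55 ratios of the 11 probes these were 5 (*Egr2*, *Prx* and a *Pmp22* probe in DT-treated *Prestin*-*hDTR* against untreated WT, *Olig1* against DT-treated WT, and *Sox10* between the untreated groups), none above 0.09 in size. The 2-fold call of *Olig2* against each control group held under every alternative that was run for it, with log2 ratios of 1.47 to 1.92 against untreated *Prestin*-*hDTR*, 1.24 to 1.69 against untreated WT and 1.76 to 2.47 against DT-treated WT (lowest with normexp in all 3), and the 10 other probes kept their signs in DT-treated against untreated *Prestin*-*hDTR* mice, between -0.33 and 0.34. With 1.5-fold as the threshold, 4 of 11 probes, *Olig2* among them, passed in DT-treated *Prestin*-*hDTR* against untreated WT mice (1 at 2-fold). In that comparison 10.6% of all probes did. In DT-treated against untreated WT mice 3 of 11 passed (0 at 2-fold), where 5.91% of all probes did. Quantile scaling shifted the median of all probes by -0.02. Of 40 list medians 10 changed sign, none above 0.13 in size under any setting that changed it, in the lists of ErbB signalling, myelin lipid, non-myelinating glia, oligodendrocyte precursor and repair Schwann genes. The largest of them, for ErbB signalling genes in DT-treated *Prestin*-*hDTR* against untreated WT mice, went from 0.11 to -0.05 with the mean over all probes of a gene. No paired analysis was possible because each group has 1 array. The *Olig2* signal in DT-treated WT mice lay near the lowest measured level, which limits its ratio to that array.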
